A study of Drosophila melanogaster with 3 samples.

Results

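In the list of Collier (Col) ChIP-seq summits, the gene labels CG34380, CG14872, CG42342 and snky belong to little-studied genes that each carried 4 or 5 summits. They were chosen by their label and by this number, and every summit whose label equals one of the names was taken. This gave 17 of the 559 summits in the list, 5 at CG34380 and 4 at each of the other labels. The number of summits per label is therefore how the genes were chosen and not a result. A minimum of 4 summits was met by 13 of the 409 labels (3.18%). Of the 4 labels, 3 lie on that limit with exactly 4 summits, and 16 labels lie just outside it with 3.

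Chromatin came from fixed whole embryos of Drosophila melanogaster at stage 13 to 14, which carried a lacZ reporter transgene driven by a modified regulatory region of col. For the Col-IP, 3 monoclonal antibodies against Col were mixed, the mock-IP used a non-relevant antibody against the HA tag, and an input DNA sample was also listed. Each of these conditions was 1 sample, and the Col-IP and mock-IP libraries were pools of separate IPs, so variation between IPs was not measured and no summit carries an error or a test. Only the Col-IP summits, each with a gene label and a fold enrichment, were analysed here. Read counts are not part of this list, which leaves the depth at a summit unknown, and the mock-IP and input levels at these loci were not analysed here. Whole embryos mix the cell types that express Col, so the cells in which a summit was bound cannot be told apart.

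Collier is the only transcription factor of the COE family in Drosophila and is related to the EBF proteins of vertebrates. In the embryo it has roles in the head, in certain body wall muscles and in subsets of neurons. COE proteins bind DNA as dimers, and their site is a palindrome of CCC and GGG on either side of a short spacer. A ChIP summit is the position where the precipitated fragments centre. It is assigned to a gene by overlap or by nearness, and the assignment does not show that the gene is regulated from there. Positions of summits and sites are on dm3 (BDGP release 5), and the summits were called on a grid, so distances between them come in steps of 10 bp.

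The summits of the 4 labels were arranged over short and long spans. At snky the 4 summits fell within 5250 bp and at CG14872 within 6260 bp, the shortest spans of all 13 labels with 4 or more summits. The 5 summits of CG34380 were spread over 21730 bp, rank 4 of the 13. Those of CG42342 reached over 61260 bp, rank 9, which was 11.7 times the span of snky. No summit of another label lay inside any of these spans.

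**Figure D1:**
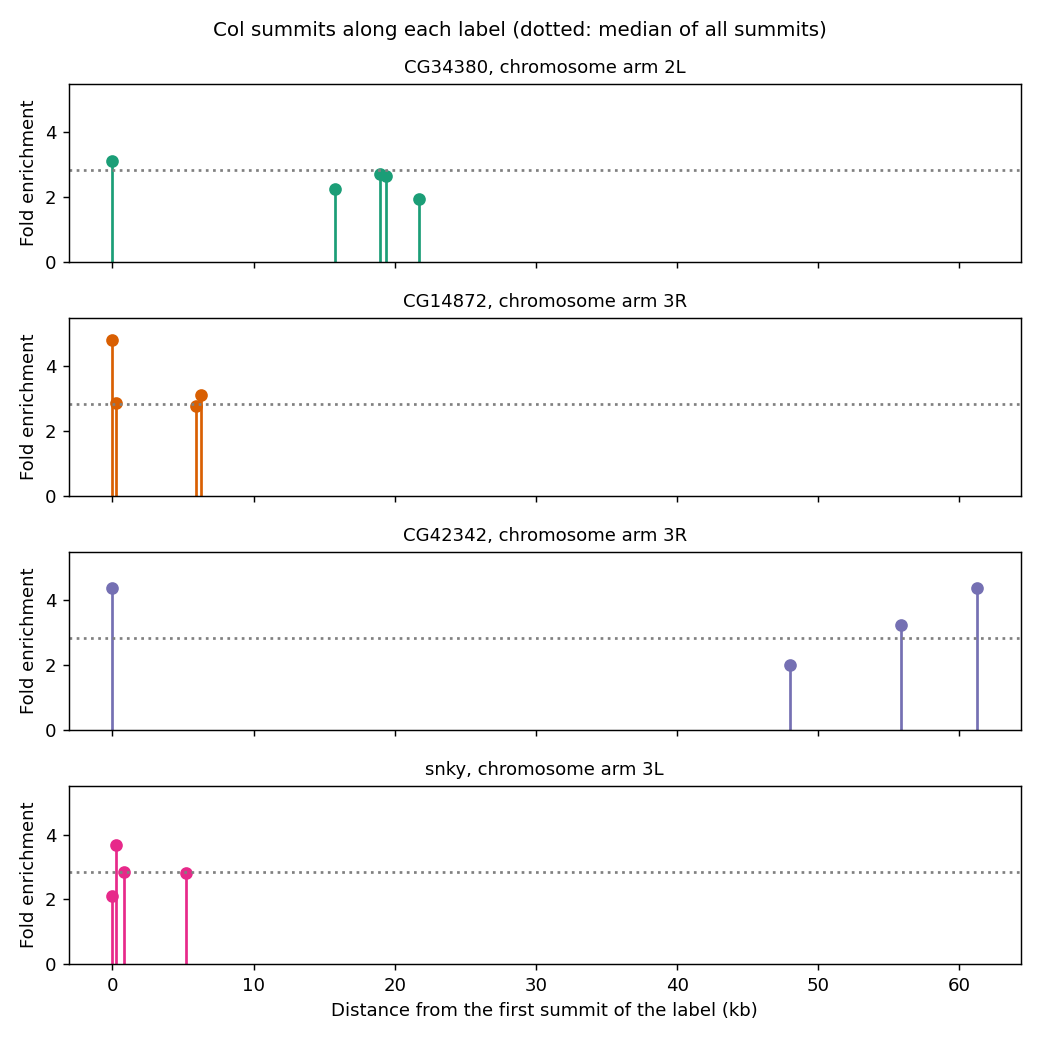
Each stem is 1 Col summit, placed by its distance in kb from the first summit of its label (horizontal axis, the same scale in every panel), and its height is the fold enrichment. The dotted line is the median of all 559 summits, 2.85. CG14872 shows a pair of close summits at either end of 6.26 kb, and CG42342 shows summits at both ends of 61.26 kb, at 4.37 and 4.38.

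CG34380 is named smal (smoke alarm) in the RefSeq gene table, a receptor tyrosine kinase of the discoidin domain receptor family. Receptors of this family are known in vertebrates for binding collagen. All 5 summits were classed as intragenic in the study's annotation. In order along chromosome arm 2L they lay at 6183652, 6199412, 6202632, 6203042 and 6205382. Their fold enrichments in this order were 3.11, 2.26, 2.71, 2.66 and 1.95. The first summit was the highest and stood 15760 bp from the second, while the other 4 lay within 5970 bp. Only the first exceeded the median of all summits. The last, at 1.95, ranked 557 of 559, just above the lowest value in the list (1.94).

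Each of these summits had a Col site in the study's list of sites, which were found with MEME in a window of 200 bp around each summit. They are shown because they differed in how well they match the motif. Each is 15 bases long and printed 5′ to 3′ on the strand given in the study's list, which does not say which genomic strand that is. Capitals mark the bases that match CCCNNGGG at positions 5 to 12, so a lower-case letter among the outer 3 bases on either side of the spacer is a mismatch.
CG34380, chr2L:6183600-6183614: gcttCCCagGaGaat
CG34380, chr2L:6199416-6199430: aattCCactGGGacc
CG34380, chr2L:6202626-6202640: atgcCCCaaGGGagg
CG34380, chr2L:6202984-6202998: aatgCtCacGGcagg
CG34380, chr2L:6205293-6205307: aaggCCCcgGGGaca

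The sites of the third and the fifth summit held all 6 specified bases of the core. They lay at opposite ends of the range of distances at this gene, 1 bp from the summit in the first case and 82 bp in the second. The fifth summit, the weakest, thus had a complete core that was far from its centre. The highest summit had 5 of the 6 bases and its site 45 bp away, and the second had 5 with the site 11 bp away. The summits at 6202632 and 6203042 were 410 bp apart and nearly equal in height (2.71 and 2.66), but the site of the latter held 4 of 6 bases and lay 51 bp away. The pair therefore differed in its sites and hardly in its enrichment.

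CG14872 is a superseded name. In the gene table it is a synonym of a pair of neighbouring genes, CG44014 and CG44013, and the study's list of bound genes places the same summits at CG44014, on its 5′ side. The function of these genes is not given by the files used here. On chromosome arm 3R the summits lay at 11338152, 11338392, 11344052 and 11344412. Their fold enrichments were 4.8, 2.87, 2.78 and 3.13. They formed a pair of close pairs, with gaps of 240 bp and 360 bp inside the pairs and 5660 bp between them. The first summit was the highest of all 17, with rank 75 of the 559. The other 3 lay between 2.78 and 3.13, around the median of the whole list.
CG14872, chr3R:11338137-11338151: gattCCCtgGGcgaa
CG14872, chr3R:11338471-11338485: gttgCCacaGaGgtt
CG14872, chr3R:11344105-11344119: atttCCCctGtGcat
CG14872, chr3R:11344377-11344391: aatcCtCcaaGGatt

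No site at CG14872 held the complete core. The first and the third site had 5 of the 6 bases and the second and the last had 4. In both pairs the higher summit had the nearer site. In the first pair the site of the summit at 4.8 lay 8 bp away and that of the summit at 2.87 lay 86 bp away. In the second pair the distances were 28 bp for the summit at 3.13 and 60 bp for the summit at 2.78. The weaker site of the first pair held 6 of the 12 specified bases of the longer in vitro sequence, which adds ATT before the core and AAT after it. This was the lowest value of all 17 sites, which ran from 6 to 10, and the median over all 542 summits with a site was 8.

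The gene table lists snky (sneaky), which is known for breakdown of the sperm plasma membrane after fertilization, between CG33262 and caps. All 4 summits were classed as lying on the 3′ side of the gene. They were at 13181882, 13182172, 13182712 and 13187132 of chromosome arm 3L, with fold enrichments of 2.09, 3.68, 2.83 and 2.81. The first 3 lay within 830 bp, with gaps of 290 and 540 bp, and the last stood 4420 bp away. Within the trio the middle summit was the highest, 1.76 times the first and 1.30 times the third. The isolated summit was about as high as the third one of the trio.
snky, chr3L:13181840-13181854: aatgCCCacGGGtcg
snky, chr3L:13182161-13182175: agttCCCagGGGatt
snky, chr3L:13182700-13182714: gtttCCCacaGGacc
snky, chr3L:13187138-13187152: ttgcCCCcaGGGttt

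At snky 3 of the 4 sites held the complete core, and the third had 5 of the 6 bases. The site of the highest summit also held 10 of the 12 bases of the longer sequence, a number reached by only 1 other of the 17, the first site of CG34380. Site distances were 35, 4, 5 and 13 bp in order along the arm.

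CG42342 is a gene with many transcripts in the gene table, and its function is not given by the files used here. Its 4 summits were classed as intragenic and lay at 12330172, 12378162, 12386032 and 12391432 of chromosome arm 3R. The fold enrichments were 4.37, 2.01, 3.23 and 4.38. The highest values thus stood at the ends of the series and were nearly equal, and the lowest was at the second summit, rank 540 of the whole list. Gaps were 47990, 7870 and 5400 bp, so 3 summits lay within 13270 bp and the first was far from them.
CG42342, chr3R:12330160-12330174: cattCCCctGGGgca
CG42342, chr3R:12378161-12378175: tggtCCCggcGGacc
CG42342, chr3R:12386022-12386036: tggcCCCaaGGGtgt
CG42342, chr3R:12391399-12391413: aggtCCCggGGGgcc

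The complete core was present at 3 of these 4 sites. The exception was the weakest summit, with 5 of the 6 bases, although its site lay only 6 bp away. The other distances were 5, 3 and 26 bp. Beyond the core the match was modest, with 9, 7, 7 and 7 of the 12 bases of the longer sequence. The second and the last site were identical at 12 of 15 positions, which was the most alike pair within a label.

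**Figure D2:**
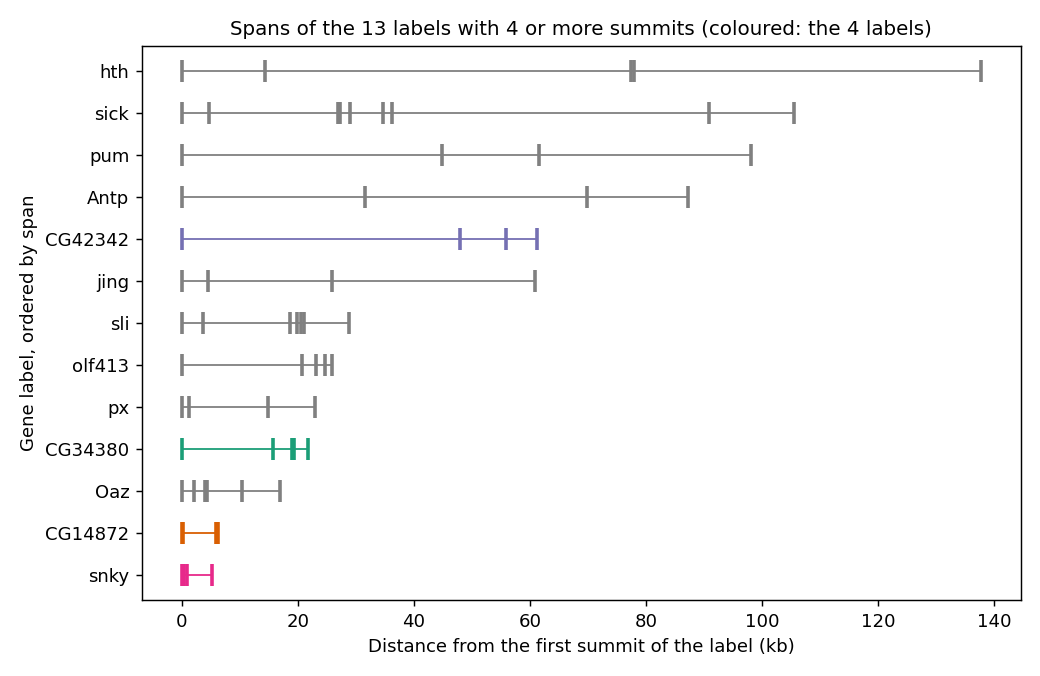
Vertical ticks are Col summits of the 13 labels with 4 or more summits, placed by distance in kb from the first summit of the label (horizontal axis) and ordered from the shortest span at the bottom. Coloured rows are CG34380, CG14872, CG42342 and snky, and grey rows are the other 9 labels. The rows of snky and CG14872 end at 5.25 and 6.26 kb, and the next shortest, Oaz, ends at 16.92 kb.

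Set beside the other 9 labels with 4 or more summits, which held 48 summits, the 4 labels covered both the compact and the spread kind. Oaz, a zinc finger gene, had the span nearest on a log scale to those of snky and CG14872, but it was 16920 bp long for 6 summits. The span of CG34380 was most like that of px (22870 bp), a gene of wing vein patterning, and the span of CG42342 most like that of jing (60870 bp), another zinc finger gene. The 4 summits of jing lay between 4.94 and 6.06, above all of the 17. Those of px ran from 2.24 to 9.48 with a median of 2.89. Those of Oaz ran from 2.02 to 16.17 with a median of 3.68. Both thus overlapped the heights of the 4 labels. At px only the summit at 9.48 exceeded all of the 17, while at Oaz those at 5.12, 8.51 and 16.17 did. Within the labels, the highest summit was 1.59 times the lowest at CG34380, 1.73 times at CG14872, 1.76 times at snky and 2.18 times at CG42342. Over the other 9 labels this ratio ran from 1.23 at jing to 8.00 at Oaz.

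Close neighbours were common among the 17 summits, as the choice of labels with several summits favours. Another summit lay within 1000 bp of 9 of them, all 4 at CG14872, 3 at snky and 2 at CG34380, while 8.23% of all 559 summits had such a neighbour. Over the other labels with 4 or more summits the share was 9 of 48 (18.8%), and over the 17 it was 52.9%. No summit of CG42342 had such a neighbour. Having a neighbour is mutual, so summits counted here are linked in pairs or a trio. No interval is given for these shares, and their difference was not tested. In the whole list 24 gaps between adjacent summits were at most 1000 bp, and 5 of them were at these labels, with gaps from 240 to 540 bp. In these 5 the higher summit was 1.02 to 1.76 times the lower, with a median of 1.30, and the median over all 24 was 1.34. Each summit of the 5 pairs had a site. With gaps of at least 240 bp and sites within 100 bp of a summit, no site could be shared. In all 5 the higher summit had the nearer site, though the difference was 1 bp in the second pair at snky. Both pairs at snky have the same higher summit, so the 5 are not separate cases. In the whole list the higher summit had the nearer site in 15 of the 23 pairs in which both summits had a site. These 23 include the 5 and a pair at ci whose summits share a site. They also include a pair of equal height at CG15711, which was not among the 15. Without read coverage, it was not tested whether close summits are separate binding events or parts of 1 enriched stretch.

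Fold enrichments of the 17 summits were ordinary for the list. They ran from 1.95 to 4.8 with a median of 2.83, and all summits together ran from 1.94 to 16.17 with a median of 2.85. A value of at least 3 was reached by 7 of the 17 (41.2%, 95% Wilson interval 21.6 to 64.0%) and by 44.9% of all summits. These 7 were 3 at CG42342, 2 at CG14872 and 1 each at CG34380 and snky. The medians by label were 2.66 at CG34380, 2.82 at snky, 3.00 at CG14872 and 3.80 at CG42342, and the ranges of all 4 labels overlapped. Intervals cover counting error over summits only.

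**Figure D3:**
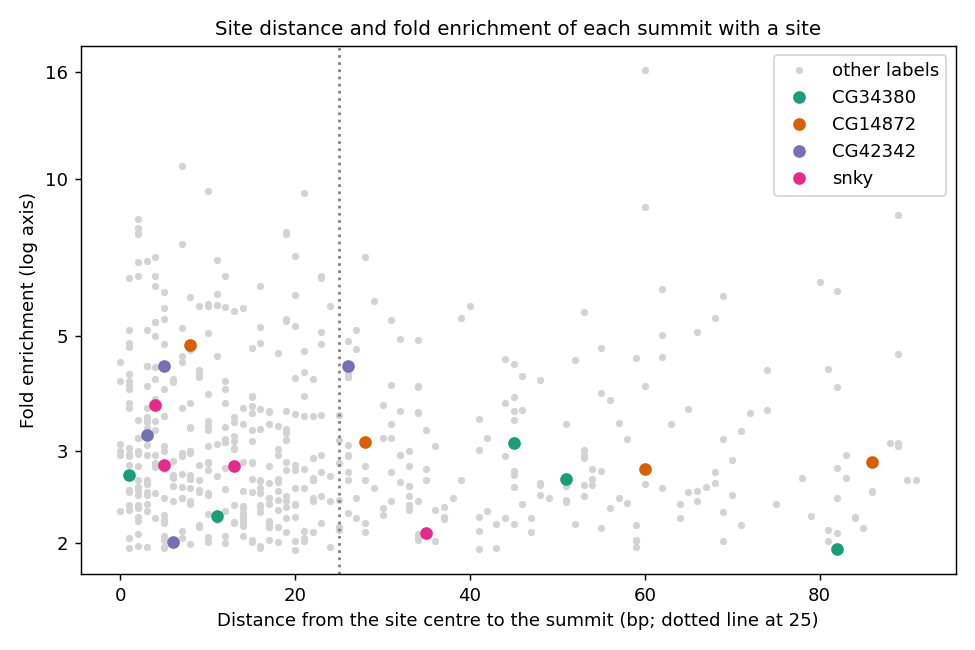
Each point is 1 summit with a Col site, with the distance in bp from the site centre to the summit on the horizontal axis and the fold enrichment on a logarithmic vertical axis. Grey points are other labels and the dotted line marks 25 bp. The points of CG42342 and snky lie at 35 bp or less, and those of CG34380 and CG14872 reach 82 and 86 bp.

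All 17 summits had a site within 100 bp, as did 97.0% of the whole list. The site centre was within 25 bp in 9 of the 17 (52.9%, interval 31.0 to 73.8%) and in 64.4% of all summits with a site. By label these were 3 at CG42342, 3 at snky, 2 at CG34380 and 1 at CG14872. At the other end, 4 sites lay over 50 bp away, 2 at CG34380 and 2 at CG14872, against 16.8% in the list. The intervals over the 17 sites held the shares in the list, and the 4 or 5 sites of a label are too few to compare labels.

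The complete core CCCNNGGG, which reads the same on both strands, was found in 8 of the 17 sites (47.1%, interval 26.2 to 69.0%) and in 42.6% of all sites. A further 6 held 5 of the 6 bases and 3 held 4, and 12.7% of all sites held 4 or fewer. The 3 sites that held 4 bases were 2 at CG14872 and 1 at CG34380. Whether close neighbours go with weaker cores was not tested. The sites were picked by the motif, so the match describes the listed sites and is not independent of how they were picked. Compared as printed, the median identity of 2 sites was 7 of 15 bases both over the 28 pairs within labels and over the 108 pairs between them. All sites were picked by the same motif and each enters several pairs. The medians therefore cannot show whether sites of a label are more alike.

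**Figure D4:**
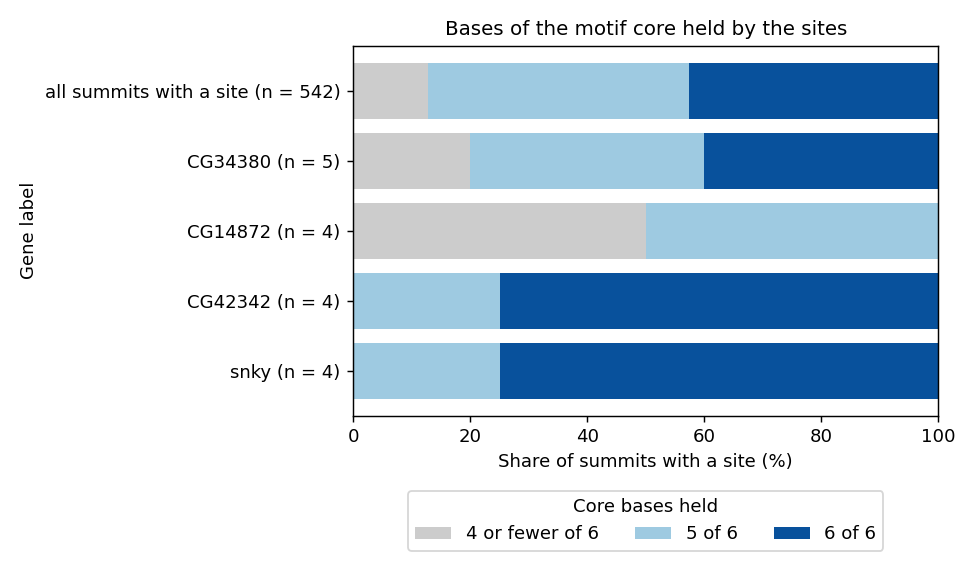
Bars give the share in percent of summits whose site holds 6, 5, or 4 or fewer of the 6 specified core bases, for all 542 summits with a site and for each of the 4 labels (4 or 5 sites each). CG14872 has no site with the complete core, and CG42342 and snky have 3 of 4.

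The labels next to the 4 genes differed in distance. On the side of higher coordinates, snky was followed after 15900 bp by the summit of caps (3.5), and caps (capricious) encodes a leucine-rich repeat cell surface protein that acts in the targeting of axons. On the other side the summit of CG33262 (2.65) lay 50840 bp away. The gene table gives CG33262, snky and caps as consecutive protein-coding genes, so each of the 3 carried at least 1 summit. The summits labelled snky lay on the 3′ side of snky and before the summit of caps, and whether they act on either gene was not tested.

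CG34380 was followed after 10760 bp by the summit of Ugt37b1 (2.51), a UDP-glycosyltransferase gene and the next protein-coding gene in the table. The distance was 0.495 times the span of CG34380 itself, the closest neighbour among the 4 labels. The summit of CG31639 (3.51), on the other side, was 27920 bp away. The first summit of CG34380 was thus closer to the rest of its own label, at 15760 bp, than to that neighbour.

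CG42342 had Fas1, the gene of the adhesion protein fasciclin 1, as its neighbour at higher coordinates, with a summit of 8.84 at a distance of 64250 bp. That summit was higher than any of the 17. The nearest label on the other side was SF2, a splicing factor gene, at 162480 bp (2.18). The gap between the outer summits of CG42342 was thus about as long as the distance to Fas1.

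The summits of CG14872 had a distant neighbour on one side only. At lower coordinates the nearest label was CG9926 (1.98), 1562580 bp away, the third longest of the 551 gaps between adjacent summits of a chromosome in the list, whose median was 78960 bp. At higher coordinates CG18516 (2.66), named AOX4 in the gene table and thus an aldehyde oxidase gene, was 41640 bp away, nearer than either neighbour of CG42342. The 4 summits within 6260 bp were therefore the first after a long stretch of 3R without a listed summit. The list holds called peaks only, so weaker binding in this stretch cannot be judged from it.

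As CG34380 is a receptor tyrosine kinase gene, the labels were searched for 21 genes of this class, by symbol and by synonym. Labels of 4 of them (19.0%) were found, while 2.99% of the 13962 protein-coding genes in the gene table had one. Beside CG34380 these were drl with 3 summits (2.11 to 2.95), dnt with 1 (2.38) and Drl-2 with 1 (3.18). All 3 belong to the Ryk family, which in Drosophila is known for receptors of Wnt5 in axon guidance. No label named Ddr, the other discoidin domain receptor gene of the list. CG34380 itself was in the list because it was chosen, and without it 3 of the other 20 genes had a label. The heights at drl and dnt lay within the range of CG34380, from 1.95 to 3.11, and that at Drl-2 just above it.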

How the data were processed

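The 559 Col-IP summits are positions that carry a gene label and a fold enrichment. The fold enrichment is a linear ratio that the authors obtained from the peak caller SISSRs, over a background their methods do not name. Per the labels and the study's methods, the authors aligned reads to dm3 with Bowtie 0.12.7, removed plasmid sequences from the elution step, and called peaks on 1 pooled library at lenient p-value and E-value thresholds. Total counts per sample were not used here, so the precision of a single ratio is unknown. Sites came from the study's supplementary list and a site was joined to a summit where its centre lay within 100 bp. Shares have 95% Wilson intervals, which cover counting error only. No test was made, since each condition is 1 sample and summits are not replicates.

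The members and lists were chosen with earlier results of these data known. Named are the 4 labels, the nearest label on either side of each, the other labels with 4 or more summits where a comparison of spans or heights uses them, and the listed receptor tyrosine kinase genes with a label. Gene names and gene order came from the RefSeq table of Release 6, a later assembly than dm3, whose coordinates were not used. A synonym that is the current symbol of another gene was not matched. Alternatives were a minimum of 3 for the fold enrichment, merging within 500 bp, other distances and other readings of the core. Python 3.11.15, numpy 2.4.6, pandas 2.3.3, scipy 1.17.1 and matplotlib 3.10.9 were used, and the joins and counts were tested on simulated data.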

Additional observations from a re-analysis of the deposited data

How the results depend on the processing

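A minimum fold enrichment of 3 left 7 of the 17 summits and 0 with a neighbour within 1000 bp, since in each close pair or trio at most 1 summit reached 3. It left the spans of CG14872 and CG42342 as they were, and no span could be given for CG34380 and snky, which kept 1 summit each. Leaving out the summit farthest from the median position shortened the spans to 5970 bp at CG34380, 5900 bp at CG14872, 13270 bp at CG42342 and 830 bp at snky, so at CG34380, CG42342 and snky most of the span rests on 1 summit. The share of sites near the summit rose to 76.5% within 50 bp, and with 1 mismatch allowed 82.4% held the core, as looser criteria must give. The other alternatives, including merging within 500 bp (13 summits), kept counts within 1.5 times, shares within their interval and the median fold enrichment within 1 SD over the summits. No paired analysis was possible because the Col-IP is 1 sample. The list gives no read counts, so what depth limits cannot be judged.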
